A study of Mus musculus with 24 samples.

Results

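The miR-34 family was followed across mouse colon tumours and normal colon mucosa. Its members were taken by name: the mouse probes that read miR-34a, miR-34b or miR-34c once an arm ending is removed. This gave 4 probes of 566 mouse miRNA probes, namely mmu-miR-34a, mmu-miR-34b-3p, mmu-miR-34b-5p and mmu-miR-34c, written below without the species prefix. The rule reads probe names alone. Probe counts came from the NanoString nCounter system, which hybridises a colour-coded probe to each miRNA and counts single molecules without amplification.

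MicroRNAs are short RNAs that guide a silencing complex to messenger RNAs, chiefly through the seed, a stretch near the 5′ end. Transcription of the miR-34 genes is raised by the tumour suppressor p53 after DNA damage and other stress. The family is known for lowering transcripts of cell-cycle and survival genes such as Cdk4, Cdk6, Met and Bcl2. In most tissues miR-34a is the abundant member, whereas miR-34b and miR-34c are known from testis, brain and ciliated airway epithelium. The related miR-449 miRNAs carry the same seed and are known from multiciliated cells.

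The libraries covered 4 groups: APC normal mucosa (n = 6), APC tumour (n = 5), AOM-DSS normal mucosa (n = 7) and AOM-DSS tumour (n = 6). The APC animals are named APC;CpC in the design text, a line in which Cre recombinase under a Cdx2 promoter deletes the tumour suppressor Apc in gut epithelium. The AOM/DSS animals develop tumours after azoxymethane, a carcinogen, and dextran sulphate sodium, which inflames the colon. Normal tissue is described as matched to the tumours, and APC normal mucosa carries the same genotype label as APC tumours. The labels do not say whether AOM-DSS normal mucosa came from animals given both agents, nor do they give age, sex or which libraries share an animal. The p-values therefore measure the spread between these libraries, which may be technical. The extraction protocol names fixed, embedded tissue and the design text names frozen tissue, and the labels do not settle which applies. No value in these files measures p53 itself, so p53 status could not be checked against the family's name.

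Total mouse miRNA counts ran from 47235 to 329346 per library with a median of 251264. The shallowest library was AOM-DSS normal 7, and the next was APC tumour 1 with 134680 counts. All 11 APC libraries shared cartridge 1. Cartridge 2 held all 7 normal libraries of AOM-DSS together with tumours 1 and 2, and cartridge 3 held tumours 3 to 6, so model and cartridge cannot be told apart between APC and AOM-DSS. Levels are given as CPM, counts scaled to a common library total after each total was multiplied by its TMM factor, computed in edgeR. A factor above 1 lowers the CPM of a library and a factor below 1 raises it. The factors ran from 0.69 to 0.91 in APC mucosa and from 1.02 to 1.61 in APC tumours. They ran from 0.80 to 1.03 in AOM-DSS mucosa and from 0.95 to 1.28 in AOM-DSS tumours. Muscle markers moved with the tumour label. Summed muscle markers, 5 miRNAs, lay between 172038 and 340301 CPM in APC mucosa and between 10379 and 24382 CPM in APC tumours. Most of that sum was miR-145 and miR-143, with means of 152185 and 87172 CPM in APC mucosa, against 709 CPM for miR-1, the next highest. In bulk tissue, fewer cells of a type and less RNA per cell cannot be told apart.

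The mature sequences show which probes share the family's seed. Of 7 probes in the miR-34 and miR-449 families, 5 matched an entry of the RefSeq table (assembly GRCm38.p6). They are printed 5′ to 3′ with the seed, bases 2 to 8, in capitals.
miR-34a: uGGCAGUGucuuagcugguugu
miR-34b-5p: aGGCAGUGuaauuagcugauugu
miR-449a: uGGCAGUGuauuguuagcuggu
miR-449c: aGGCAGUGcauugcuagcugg
miR-34b-3p: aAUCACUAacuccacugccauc
The first 4 share the seed GGCAGUG, and no other entry among the 1679 mature miRNAs of the table carries it (0.238%). miR-34c and miR-449b had no matching entry in the table, so whether they carry this seed is not shown by it. Compared position by position from the 5′ end, seed included and with no gap allowed, miR-34a and miR-34b-5p had the same base at 11 of 22 positions, and miR-34a and miR-449a at 15 of 22. An ungapped count of this kind misses stretches that match after a shift. miR-34b-3p is the opposite arm of its hairpin and has another seed, AUCACUA. The mature miR-34a lies at chr4:150068473-150068494 on the plus strand, and its hairpin overlaps no other gene of that table. The arms of miR-34b lie at chr9:51103610-51103632 (5p) and chr9:51103574-51103595 (3p) on the minus strand, inside the annotated spans of the protein-coding genes Hoatz and Btg4. The Mir34c hairpin begins 451 bases from that of Mir34b on the same strand. miR-449a lies at chr13:113037549-113037570 and miR-449c at chr13:113036008-113036028 on the plus strand, both within the span of Cdc20b.

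In these colon tissues miR-34a was the 1 member of the family that stood clear of background. The background of each library was the mean plus 2 SD of its 33 viral probes, made for miRNAs encoded by mouse cytomegalovirus and a gammaherpesvirus. The miR-34a count exceeded it in 24 of 24 libraries, by 1.82 to 8.40 times. The other 3 members sat at the level of the viral probes. miR-34b-3p and miR-34b-5p were above background in 0 of 24 libraries, with counts of 0.290 to 0.766 and 0.231 to 0.814 times background. miR-34c exceeded it in 2 libraries, APC normal 2 with 36 counts and APC tumour 5 with 44 counts, at no more than 1.01 times background. With a background of mean plus 3 SD, or with the highest viral probe as the limit, miR-34c was above in 0 libraries and miR-34a in all 24. The 3 seed relatives miR-449a, miR-449b and miR-449c were at or below background in every library.

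**Figure D1:**
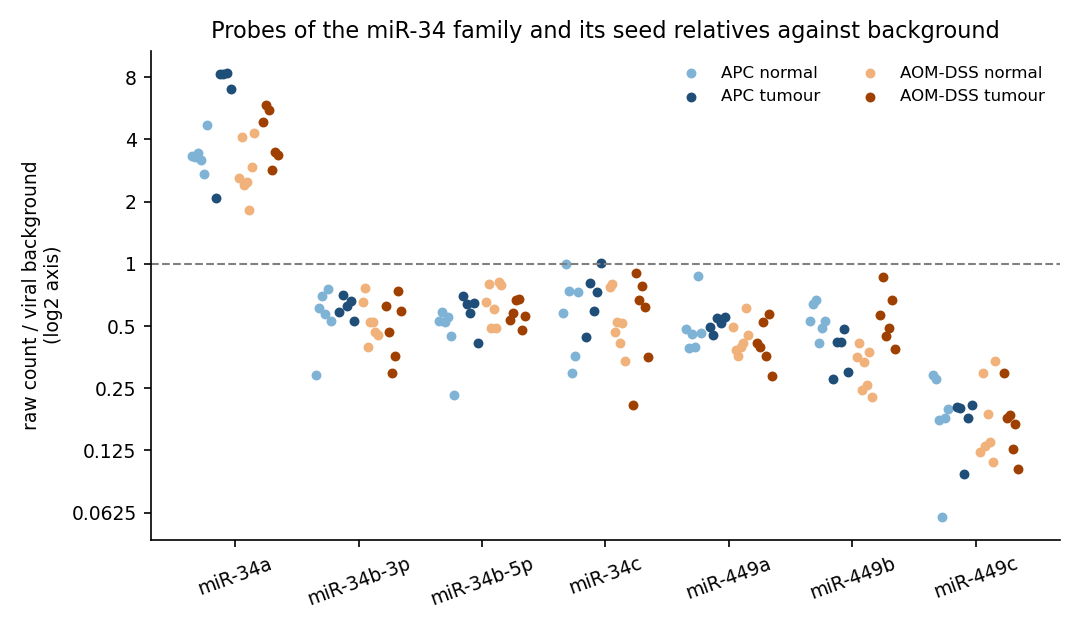
Raw count of each miR-34 and miR-449 probe divided by the viral background of the same library (log2 axis), 1 point per library, coloured by group; the dashed line marks 1. The miR-34a points lie between 1.82 and 8.40, and the points of the other 6 probes lie below the line except for 2 of miR-34c.

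APC tumours carried more miR-34a than APC mucosa. In the 6 APC normal libraries miR-34a measured 467 CPM at the lowest, 522 CPM at the median and 693 CPM at the highest, with a mean of 565 ± 96.1 CPM (SD, n = 6). The 5 APC tumours measured 525, 1547, 1488, 1579 and 1246 CPM for numbers 1 to 5, with a mean of 1277 ± 440.3 CPM (SD, n = 5). In 4 of 5 tumour libraries miR-34a lay above every normal library, and APC tumour 1 lay inside the normal range, so the groups overlapped in CPM. APC tumour 1 had the largest TMM factor of the 24 libraries, 1.61, which lowers its CPM. Its place inside the normal range therefore holds for this scaling only. The raw counts of the miR-34a probe, background included, were 114, 493, 521, 469 and 304 in the tumours, against 69 to 161 in the normal libraries.

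miR-34a rose by 1.18 ± 0.22 on the log2 scale in APC tumours (SE; 95% interval 0.74 to 1.61), a 2.26-fold difference with an adjusted p of 5.43e-05 in edgeR's quasi-likelihood test with Benjamini-Hochberg adjustment. It was the 15th largest rise of 563 tested miRNAs, and 1 of 4 family members was called. Over all tested miRNAs 21.8% were called in this comparison and 9.24% were called higher. The family's median log2 difference was 0.50 against 0.04 over all tested miRNAs, and 3 of the 4 values behind that median come from probes at background. An exact two-sided permutation test on the log2 CPM of miR-34a alone gave p = 0.0173 over 462 arrangements, where 0.00433 is the smallest p possible. Adjusted over the 4 group comparisons tested this way, that exact p was 0.0693.

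The background itself did not move as far. The mean CPM of the viral probes was 91.4 ± 12.6 in APC mucosa and 101 ± 10.7 in APC tumours (SD, n = 6 and 5), a log2 difference of 0.15. Above the viral mean of its own library, miR-34a stood at 474 ± 90.4 CPM in APC mucosa (n = 6) and 1176 ± 451 CPM in APC tumours (n = 5).

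APC tumour 1 also differed from the other APC tumours in miR-135b and miR-31. miR-135b and miR-31 are known to be raised in colorectal tumours. In APC tumour 1 they measured 562 and 2265 CPM, above the highest APC normal values of 115 and 322 CPM. Both were lowest there among the tumours, which otherwise held 616 to 812 CPM of miR-135b and 5744 to 9301 CPM of miR-31. Of the 52 miRNAs called higher in APC tumours, 33 exceeded every normal library in APC tumour 1, against 40 to 47 in each other tumour. Of the 71 called lower, 64 fell below every normal library in APC tumour 1, against 58 to 68 in the others, so for the falls it lay within their range. Both sets were called from these same libraries, so the counts are a description and no test of APC tumour 1. Without this library the miR-34a difference was 1.37 with an edgeR adjusted p of 8.51e-09. The part played by the lower depth of APC tumour 1 and by its large TMM factor was not tested.

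**Figure D2:**
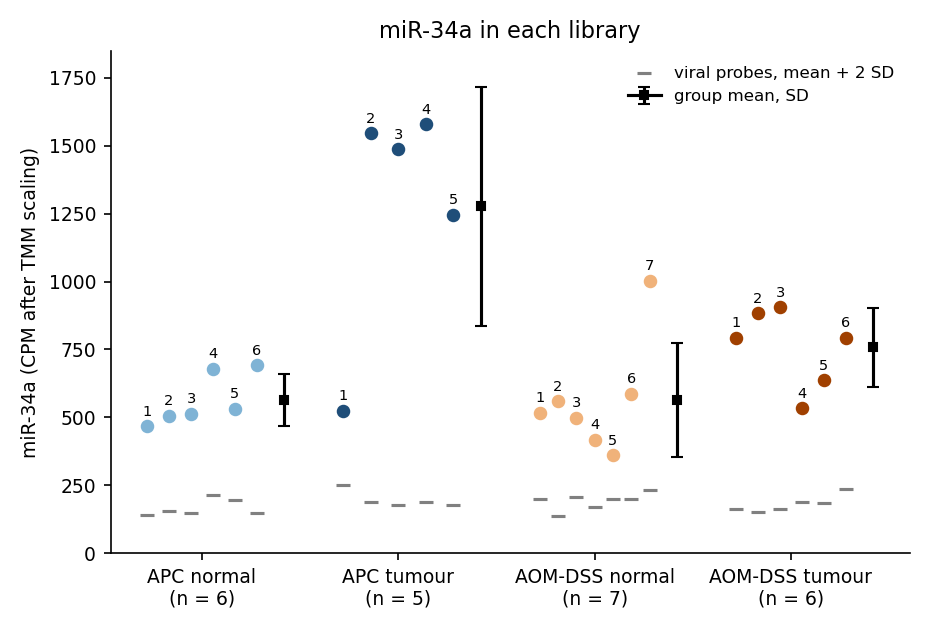
CPM of miR-34a in each of the 24 libraries (points, numbered as in the text), with group mean and SD (black squares and bars) and the viral background of the same library (grey dashes). APC tumours 2 to 5 lie between 1246 and 1579 CPM, APC tumour 1 at 525 CPM is within the APC normal range, and AOM-DSS normal 7 at 1003 CPM is the highest normal library.

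In AOM-DSS the miR-34a difference between tumour and mucosa did not pass the test. The 7 AOM-DSS normal libraries ran from 361 through a median of 517 to 1003 CPM, with a mean of 563 ± 209 CPM (SD, n = 7). The 6 AOM-DSS tumours ran from 533 through a median of 793 to 906 CPM, with a mean of 758 ± 145 CPM (SD, n = 6). Normal library 7 lay above all 6 tumours, and 5 of the 6 tumours lay above the other 6 normal libraries.

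The miR-34a difference in AOM-DSS was 0.50 ± 0.20 on the log2 scale (SE; 95% interval 0.09 to 0.92), or 1.42-fold, and did not pass the threshold of 0.05 (edgeR quasi-likelihood test, Benjamini-Hochberg adjusted p = 0.0882). The family thus had 0 of 4 members called, where 17.1% of all tested miRNAs were called in this comparison and 8.53% were called higher. The exact two-sided permutation test gave p = 0.0606 over 1716 arrangements, and 0.0808 after adjustment over the 4 comparisons. The viral probes averaged 97.2 ± 12.7 CPM in AOM-DSS mucosa and 96.0 ± 11.9 CPM in AOM-DSS tumours (SD, n = 7 and 6).

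That missed call turned on the processing and on single libraries. AOM-DSS normal 7 had 38 raw counts of miR-34a, for which an exact 95% Poisson interval, covering counting error only, spans 710 to 1377 CPM. Without it the difference was 0.63 with an edgeR adjusted p of 0.018. Within cartridge 2, where all 7 normal libraries met tumours 1 and 2 at 793 and 883 CPM, the difference was 0.67 with an edgeR adjusted p of 0.0267. With cartridge 3 as a term in the model over all libraries, the difference was 0.65 ± 0.28 (SE) and did not pass (edgeR adjusted p = 0.146). Cartridge 3 held only AOM-DSS tumours 3 to 6, so the term takes them out of the difference. That difference thus also rests on tumours 1 and 2, and it does not measure a cartridge effect. Scaling all libraries to the 4 mRNA probes in place of the miRNAs took it to -0.02 (edgeR adjusted p = 0.974), while the same scaling shifted the median of all miRNAs in that comparison by -0.47. Relative to the median of all miRNAs, miR-34a was higher by 0.39 under mRNA scaling and by 0.44 in the fit reported here.

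**Figure D3:**
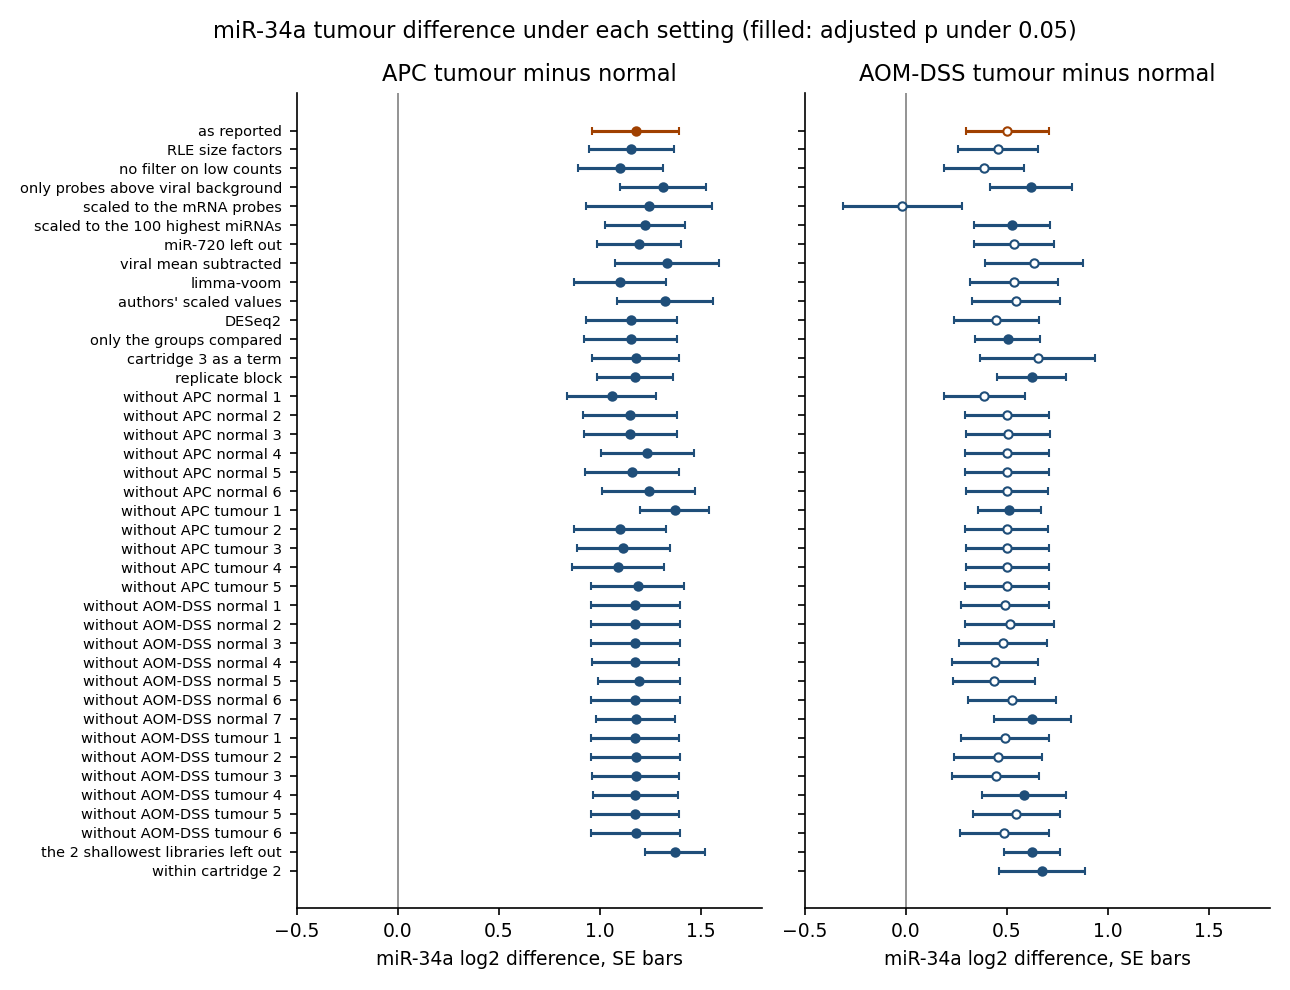
Log2 difference of miR-34a between tumour and normal in APC (left) and AOM-DSS (right) as reported (orange) and under each alternative processing or with libraries left out (blue), with SE bars; filled points have an adjusted p under 0.05. Every APC point is filled and lies between 1.06 and 1.37, whereas AOM-DSS points run from -0.02 to 0.67 and only some are filled.

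Between the models, the tumours differed and the normal mucosa did not pass the test. AOM-DSS tumours carried less miR-34a than APC tumours, by -0.76 ± 0.21 on the log2 scale (SE; 95% interval -1.19 to -0.33; edgeR adjusted p = 0.0199). Here 1 of 4 family members was called, against 8.7% of all tested miRNAs in either direction and 3.91% lower. In CPM after TMM scaling, APC tumours 2 to 5 exceeded all 6 AOM-DSS tumours and APC tumour 1, whose TMM factor was 1.61, was below all 6. The exact two-sided permutation test gave p = 0.0563, or 0.0808 adjusted over the 4 comparisons. The edgeR call was lost without APC tumour 2, 3 or 4, with adjusted p-values of 0.070, 0.0635 and 0.0705. It was also lost with cartridge 3 as a term in the model, where the difference was -0.61 ± 0.31 (SE; edgeR adjusted p = 0.294). That term takes AOM-DSS tumours 3 to 6 out, so the difference there rests on AOM-DSS tumours 1 and 2.

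In normal mucosa the difference between AOM-DSS and APC was -0.09 ± 0.21 (SE; 95% interval -0.51 to 0.33; edgeR adjusted p = 0.899), with 0 of 4 members called against 3.37% of all tested miRNAs. The interval leaves room for a change of either sign, and the value turned to 0.05 in the authors' scaled values. The exact two-sided permutation test gave p = 0.791. Model and cartridge cannot be told apart in either comparison.

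The difference between the tumour effects of the 2 models, tested as an interaction, did not pass the threshold. The fitted difference of effects was -0.67 ± 0.30 (SE; 95% interval -1.28 to -0.07; edgeR adjusted p = 0.177), and 0 of 4 members were called against 6.75% of all tested miRNAs. Without APC tumour 1 it was -0.86 with an edgeR adjusted p of 0.0106. The miR-34a rise in APC and its missed call in AOM-DSS are therefore not shown to differ by the fit over all 24 libraries.

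**Figure D4:**
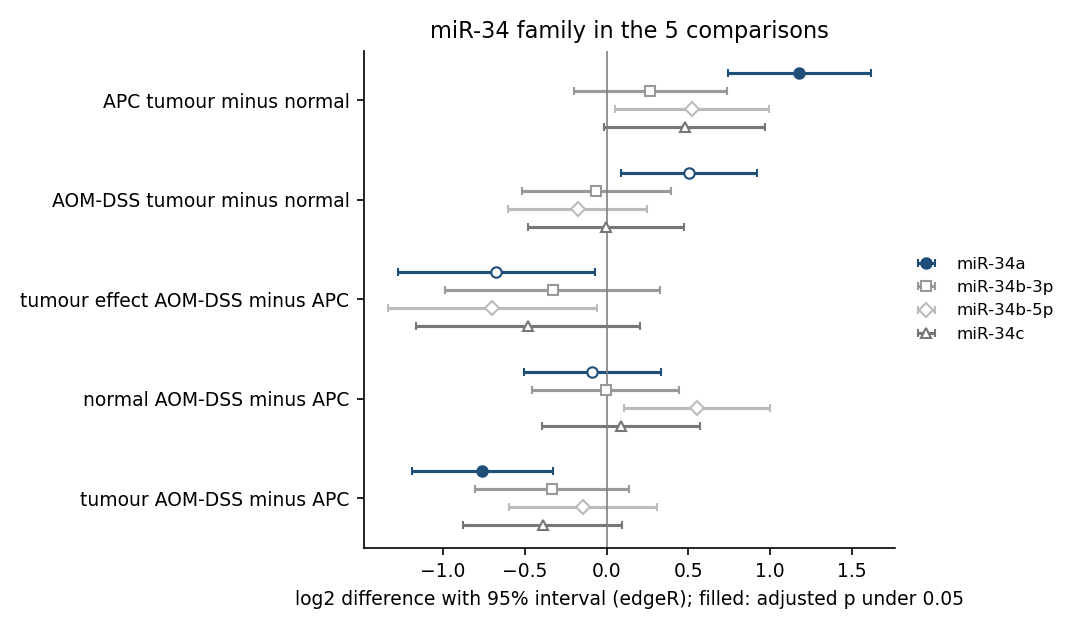
Log2 difference with its 95% interval for the 4 miR-34 family probes (symbols) in the 5 comparisons; filled symbols have an adjusted p under 0.05. miR-34a is filled for APC tumour against normal at 1.18 and for AOM-DSS against APC tumours at -0.76, and no other family probe is filled.

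The members at background gave no call in the fit over all 24 libraries. Over miR-34b-3p, miR-34b-5p and miR-34c, 0 of 15 tests passed in edgeR's quasi-likelihood test, 3 had an unadjusted p under 0.05, and the lowest adjusted p was 0.117. In APC a call did appear for miR-34b-5p without APC normal 4 or APC tumour 5 (edgeR adjusted p = 0.0457 and 0.0445), and for miR-34c in the authors' scaled values (limma adjusted p = 0.0463). Their group means lay between 80.4 CPM (miR-34b-5p in APC mucosa, SD 27.3, n = 6) and 137 CPM (miR-34c in APC tumours, SD 30.6, n = 5), where the viral probes averaged 91.4 to 101 CPM per group. In APC tumours miR-34c ranged from 106 to 180 CPM and in APC mucosa from 63.3 to 155 CPM, and the groups overlapped. Its fitted log2 difference was 0.48 ± 0.24 (SE; edgeR adjusted p = 0.172). At this depth a change in these 3 members was not detectable below the background they share with the viral probes.

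The seed relatives were in the same position, with 1 exception in the test. miR-449b was called higher in AOM-DSS tumours than in mucosa (edgeR adjusted p = 0.00344), although all 13 libraries of both groups were at or below background. Its level was 59.0 ± 9.66 CPM in AOM-DSS mucosa (SD, n = 7) and 100.2 ± 21.8 CPM in AOM-DSS tumours (SD, n = 6), and since both groups were at background no size of change is given. Scaled to the mRNA probes, the call was lost (edgeR adjusted p = 0.473). In APC its group means were 89.2 ± 10.8 CPM in mucosa and 73.2 ± 13.7 CPM in tumours (SD, n = 6 and 5), without a call. miR-449a and miR-449c were not called in any of the 5 comparisons.

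Other miRNAs linked to p53 moved in several directions. The list held 12 miRNAs reported, in part from human cells, as raised or processed with p53, and 11 were measured. In APC tumours 2 rose, 5 fell and 4 did not pass, where 9.24% of all tested miRNAs were called higher and 12.6% lower, with a median log2 difference of -0.40 against 0.04 over all tested miRNAs. In AOM-DSS tumours 2 rose, 4 fell and 5 did not pass, where 8.53% of all tested miRNAs were called each way, with a median of -0.12 against 0.07. The miRNAs that rose in both models were miR-200c, which represses the mesenchymal factors Zeb1 and Zeb2, and miR-205, an epithelial miRNA named here because its values were seen.

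The falls in this list were led by miRNAs that also mark cell types. miR-145, abundant in smooth muscle, averaged 152185 CPM in APC mucosa and 11900 CPM in APC tumours and fell by 3.68 ± 0.25 on the log2 scale (SE; edgeR adjusted p = 3.93e-12). Its cluster partner miR-143 fell by 3.61 in APC and fell by 2.24 in AOM-DSS. In APC tumours 4 of 5 muscle markers fell and 5 of 8 measured intestinal epithelium markers fell, where 12.6% of all tested miRNAs were called lower. The muscle miRNAs miR-1, miR-133a and miR-133b were at or below background in every APC tumour. miR-133b, the muscle marker that was not called, was above background in only 1 of 6 APC normal libraries. Its mean was 124 ± 23.4 CPM in APC mucosa and 120 ± 31.2 CPM in APC tumours (SD, n = 6 and 5). miR-194 and miR-192, from the intestinal epithelium, fell by 1.70 and 1.61 in APC (edgeR adjusted p = 3.40e-12 and 2.35e-10). In AOM-DSS the summed muscle markers lay between 146764 and 184664 CPM in mucosa and between 14987 and 48061 CPM in tumours. The part of any shift in cell types behind these marker differences in the miR-34a values was not tested.

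miR-22, a broadly expressed miRNA, fell in both models, by 0.43 ± 0.13 in APC and by 0.58 ± 0.12 in AOM-DSS (SE; edgeR adjusted p = 0.0113 and 0.000297). The APC call was lost with mRNA scaling, only the groups compared and a replicate block (edgeR adjusted p = 0.235, 0.0901 and 0.0985) and in the authors' values (limma adjusted p = 0.300). The AOM-DSS call was lost within cartridge 2 and with cartridge 3 as a term (edgeR adjusted p = 0.104 and 0.0980), and both of these fits rest on AOM-DSS tumours 1 and 2. miR-200c rose by 0.35 in APC (edgeR adjusted p = 0.0410) and by 0.66 in AOM-DSS (adjusted p = 4.42e-05). The APC call of miR-200c and the AOM-DSS call of miR-194 (fell by 0.37, edgeR adjusted p = 0.0433) were near the threshold, and leaving out 1 library at a time ended each of them for 10 of the 24 libraries. Other settings also ended them, 5 for miR-200c (highest edgeR adjusted p = 0.211) and 7 for miR-194 (highest, in limma on the authors' values, adjusted p = 0.205).

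Of 5 miRNAs reported to target the p53 transcript itself, largely in human cells, miR-25 rose in both models. It averaged 2313 ± 426 CPM in APC mucosa and 3846 ± 254 CPM in APC tumours (SD, n = 6 and 5), a log2 difference of 0.73 ± 0.13 (SE; edgeR adjusted p = 2.40e-05). In AOM-DSS it went from 1898 ± 119 to 4054 ± 499 CPM (SD, n = 7 and 6), a difference of 1.09 ± 0.12 (SE; edgeR adjusted p = 4.47e-09). miR-125b-5p fell in AOM-DSS tumours by 0.81 ± 0.14 (SE; edgeR adjusted p = 3.62e-05), and in APC its difference of 0.19 did not pass, though it was called with only probes above background tested (0.40, edgeR adjusted p = 0.0215). miR-30d and miR-33 were not called in either model in the fit over all 24 libraries. miR-30d was called higher in APC under 5 alternatives, among them without APC tumour 1 (edgeR adjusted p = 0.0215), and lower in AOM-DSS with mRNA scaling (adjusted p = 0.0267). In this list miR-504 was at or below background in all 24 libraries.

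Which miRNAs had the most similar profile was measured as the root mean square difference of centred log2 CPM over the 24 libraries, among 220 miRNAs above background in at least 1 group. miR-106b was closest at 0.378, then miR-708 at 0.388, miR-99b at 0.414, miR-93 at 0.427 and miR-125a-5p at 0.461. The own spread of miR-34a was 0.588 and the median distance over the 220 was 0.679, so even the closest profile stood some way off. miR-106b and miR-93 are processed from 1 primary transcript in an intron of Mcm7, and miR-99b and miR-125a from another.

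The 5 profiles departed from miR-34a in particular libraries. In AOM-DSS normal 7 miR-34a stood 0.52 above its own mean log2 CPM, and the 5 others lay below theirs, at -0.42 to -0.06. In APC tumour 1, miR-106b measured 930 CPM and miR-99b 967 CPM, against 2095 to 2367 CPM and 2276 to 2472 CPM in the other 4 APC tumours, so both were low there, as was miR-34a. miR-708, at 184 CPM, was inside the 156 to 219 CPM of the APC normal libraries, against 238 to 503 CPM in the other tumours. miR-125a-5p measured 6145 CPM in that library, inside the 5631 to 6852 CPM of the other tumours. miR-93, at 1505 CPM, lay between the APC normal libraries, at most 1279 CPM, and the other tumours, at least 1795 CPM.

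Group means of the 5, given as a description since they were chosen for their likeness to miR-34a in these libraries, were as follows. From APC mucosa to tumours, miR-106b went from 1492 ± 216 to 1997 ± 605 CPM (SD, n = 6 and 5). miR-99b went from 1140 ± 204 to 2104 ± 640 CPM, and miR-93 from 1164 ± 111 to 1799 ± 179 CPM. miR-125a-5p went from 2753 ± 448 to 6092 ± 463 CPM, and the mean of miR-708 from 190 to 365 CPM. All 5 means were thus higher in APC tumours, as was that of miR-34a. From AOM-DSS mucosa to tumours, miR-93 went from 871 ± 109.8 to 1722 ± 152 CPM, and miR-106b from 1173 ± 146 to 1763 ± 135 CPM (SD, n = 7 and 6). miR-125a-5p went from 2961 ± 399 to 4221 ± 664 CPM. miR-99b stood at 1266 ± 134 and 1383 ± 73.3 CPM in the same groups. miR-708 was above background in 1 of 7 normal and 1 of 6 tumour libraries of AOM-DSS, so no difference is given for it in that model.

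**Figure D5:**
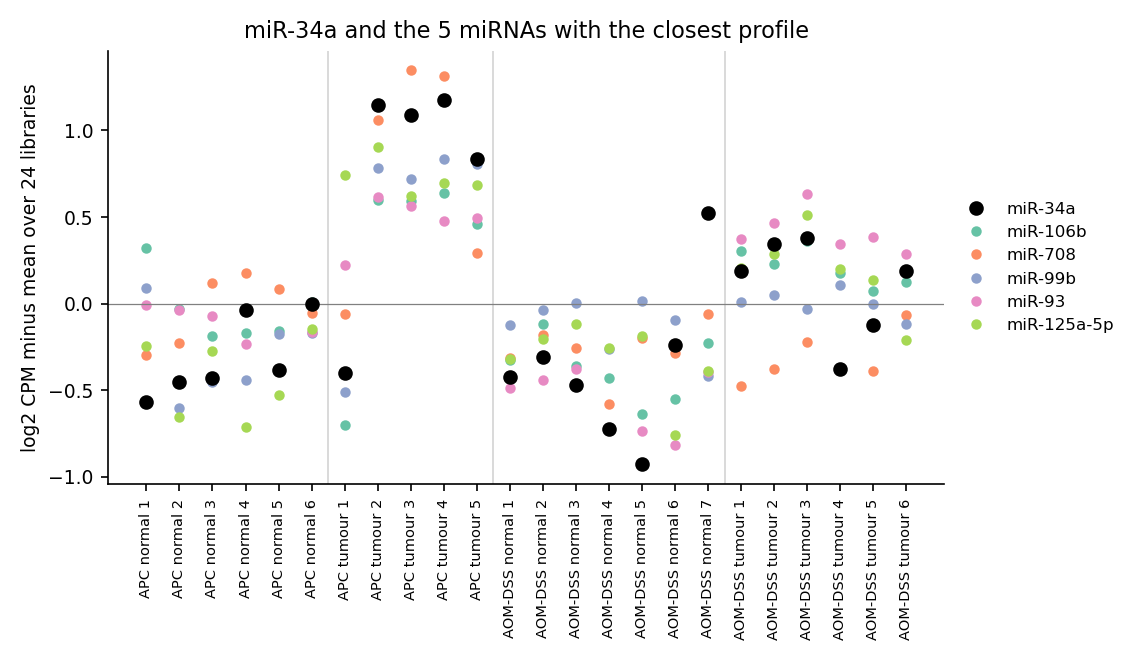
Log2 CPM minus the mean over the 24 libraries for miR-34a (black) and the 5 miRNAs with the smallest root mean square difference from it (colours), with libraries on the x axis split by group. miR-34a is high in APC tumours 2 to 5 and in AOM-DSS normal 7, and in APC tumour 1 it is low together with miR-106b and miR-99b.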

How the data were processed

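The name rule for the members, the lists and the comparisons were chosen with earlier results of these data known. The deposited raw counts, 1 per probe and library, cover 24 libraries on 3 cartridges, per the file headers. A second deposited table holds the authors' scaled signal, each raw count times 1 factor per library, with 33 zeros set to 1; it gave whole counts for 14376 of 14376 values within 0.01. That match supplied library numbers, since the headers name 1 sample for 6 columns only. How the factor and any background step were made is not given in the sources used here. Columns of other series numbered 0.

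Tests used edgeR 4.0.16 in R 4.3.3: filterByExpr (minimum count 10, total 15) kept 563 of 566 miRNAs, TMM factors scaled the libraries, and 1 robust quasi-likelihood model with group as its term gave all comparisons. Adjusted p-values of single miRNAs given without an alternative setting are Benjamini-Hochberg values over the 563 from that edgeR fit, with a threshold of 0.05. Those given for an alternative are Benjamini-Hochberg values over the miRNAs kept in its own fit, with the same threshold. The SE is the absolute log2 difference over the square root of F. Levels are CPM after TMM scaling, and log2 CPM used a prior count of 2. Exact permutation tests (scipy 1.17.1) enumerated every arrangement. All 61 pairs within groups differed by more than sampling noise (lowest chi-square per degree of freedom 3.30).

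The text names every miR-34 and miR-449 probe, up to 4 members of each p53 list with the smallest p per tumour comparison, and the 5 closest profiles. Lists also covered markers of muscle, intestinal epithelium, leukocytes, fibroblasts and mesenchyme, endothelium and erythrocytes. In APC tumours, the last 4 had 1, 2, 1 and 0 members higher and 1, 0, 0 and 1 lower; in AOM-DSS tumours 1, 1, 0 and 0 higher and 0, 2, 0 and 0 lower. Measured lists held 5, 6, 2 and 3 members. Of the epithelial markers in AOM-DSS tumours, 2 rose and 1 fell, and 4 of 5 muscle markers fell. Over all tested miRNAs 9.24% were called higher and 12.6% lower in APC, and 8.53% each way in AOM-DSS. miR-143 and miR-145 stand in 2 lists, as do miR-192, miR-194, miR-200c, miR-141 and miR-125b-5p. Alternatives were other scalings, filters, backgrounds and tools (DESeq2 1.42.0, limma 3.58.1 with voom, and limma on log2 of the authors' values plus 1), cartridge terms, a replicate block and libraries left out.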

Additional observations from a re-analysis of the deposited data

Results flagged for a closer look

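APC tumour 1 had the lowest miR-34a of the APC tumours, at 9.06 on the log2 CPM scale or 525 CPM, with a gap to the next tumour of 0.784 of the group's whole range (Dixon's 95% critical value 0.71). That CPM was scaled with the largest TMM factor of the 24 libraries, 1.61. miR-449a was far highest in APC normal 5, at 7.48 on the log2 CPM scale or 170 CPM, and miR-449c in AOM-DSS tumour 1, at 5.83 or 48.6 CPM; both probes were at or below background in every library. These were 3 of 28 values of probe and group tested, and chance gives such a gap in about 1 group of 20. The miR-449b tumour effect differed between the models by 1.02 on the log2 scale in edgeR's interaction test (adjusted p = 0.0170), with all 24 libraries at or below background for that probe, so the value is no measured size of change. The call was lost with mRNA scaling (0.49, edgeR adjusted p = 0.425) and in the authors' values (0.83, limma adjusted p = 0.0692).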

How the results depend on the processing

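The APC rise of miR-34a kept its direction and its call under all alternatives run, at 1.06 to 1.37 with 1 library left out and 1.10 to 1.37 otherwise. The AOM-DSS difference passed the threshold with only probes above background (0.62), scaling to the 100 highest miRNAs (0.52) and only the groups compared (0.50). It passed within cartridge 2 (0.67) and with a replicate block (0.62, edgeR adjusted p = 0.0139). AOM-DSS normal 7 shares its number with no tumour, so the block takes it out of the difference, as leaving it out does. The AOM-DSS difference also passed without APC tumour 1, AOM-DSS normal 7 or AOM-DSS tumour 4 (0.51, 0.63 and 0.59). Over single libraries left out it ran from 0.39 to 0.63, and it turned to -0.017 scaled to the mRNA probes. It did not pass with DESeq2's size factors, no filter, miR-720 left out or the viral mean subtracted. Nor did it pass with limma-voom, DESeq2, the authors' values or cartridge 3 as a term. Over these 8 settings it ran from 0.39 to 0.65. Leaving out the 2 shallowest libraries together, chosen after seeing the data, gave 0.62 (edgeR adjusted p = 0.000692). That setting gave -0.75 for the difference of effects (edgeR adjusted p = 0.0117), which otherwise passed without APC tumour 1 (-0.86; range -0.86 to -0.55). The difference between normal groups turned to 0.049 in the authors' values and to 0.0026 without AOM-DSS normal 5 (range -0.21 to 0.0026). That between tumours lost its call with limma-voom (-0.70), the authors' values (-0.73), cartridge 3 as a term (-0.61), and without APC tumour 2, 3 or 4 (-0.68, -0.70 and -0.67; range -0.96 to -0.67). With cartridge 3 as a term, AOM-DSS tumours 3 to 6 no longer enter any difference, and AOM-DSS tumours 1 and 2 stand for the group. The cause of the changes under the other settings was not tested.

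Scaled to the mRNA probes, the called miRNAs went from 123 to 74 in APC and from 19 to 4 between normals. With cartridge 3 as a term they went from 96 to 60 in AOM-DSS, 38 to 18 for the difference of effects and 49 to 16 between tumours. That term leaves AOM-DSS tumours 1 and 2 in those differences. Between tumours the authors' values gave 32, and single libraries left out 28 to 52, with 31, 28 and 28 without APC tumours 2, 3 and 4. Between normals, only probes above background gave 34, and single libraries left out 8 to 21, the fewest without AOM-DSS normal 5. The 2 shallowest libraries left out gave 59 for the difference of effects and 29 between normals. With mRNA scaling, 10 calls were higher and 111 lower in AOM-DSS, against 48 and 48; no filter gave 31 and 65, and in APC the authors' values gave 84 and 42 and the 100 highest miRNAs 65 and 59, against 52 and 71. For the difference of effects (22 higher, 16 lower) those 3 scalings gave 2 and 31 (mRNA probes), 11 and 17 (authors) and 17 and 24 (100 highest). Between tumours (27 and 22) they gave 2 and 63, 14 and 18, and 17 and 25, and between normals (9 and 10) mRNA scaling gave 3 and 1 and the authors' values 14 and 3. Libraries with miR-34c above background fell from 2 to 0 under both other limits.

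AOM-DSS differences that did not pass changed sign: miR-34b-3p ran from -0.22 to 0.049 and miR-34c from -0.14 to 0.17 over libraries left out. miR-34c reached 0.019 with the 100 highest miRNAs, 0.029 without miR-720, 0.72 after subtracting the viral mean and 0.0094 in the authors' values. miR-449c was -0.019 with DESeq2's size factors, -0.087 unfiltered, -0.44 with mRNA scaling, -0.082 with limma-voom, -0.056 in the authors' values and -0.027 in DESeq2, and -0.14 to 0.10 over libraries left out. miR-708 was 0.097 with probes above background, 0.0082 without miR-720, 0.022 in the authors' values and -0.15 to 0.017 over libraries. miR-99b was -0.00051 unfiltered, -0.36 with mRNA scaling and -0.00086 to 0.17 over libraries, and miR-33 was -0.30 with mRNA scaling. That scaling also ended the AOM-DSS calls of miR-200c, miR-449b, miR-93, miR-106b and miR-125a-5p, and miR-192 was called there (-0.76, edgeR adjusted p = 0.00188). The replicate numbers gave correlations of -0.34 to -0.01 (APC) and -0.08 to 0.13 (AOM-DSS) between same-numbered libraries, so they share a number without a visible pairing.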
